A study of Mus musculus with 5 samples.

Results

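MicroRNA genes that gave a measurable signal in mouse heart were compared between wild type and Akita diabetic hearts on a whole-transcript array. The members were the genes whose single annotated symbol begins with Mir and a digit or with Mirlet7, each represented by its brightest probe set, with a mean log2 signal over all 5 arrays of at least 4.06. That value is the 30th percentile of mean signal over the 22180 genes with a single symbol. Of 483 microRNA symbols with a probe set of their own, 165 met it and 318 did not, and the 165 comprised 162 microRNA loci and 3 host transcripts (Mir1a-1hg, Mir99ahg and Mir9-3hg). The members were thus chosen by their mean signal over both groups, which is given here as a description only.

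The series holds 5 heart samples of male C57BL/6 mice aged 12 weeks, 3 wild type (replicates 3, 4 and 5) and 2 Akita (replicates 1 and 3). Akita mice are heterozygous for a mutant insulin gene (Ins2+/-) and serve as a model of type 1 diabetes. Total RNA was taken from fresh tissue with a mirVana kit and labelled with a WT Plus kit. No label states that the numbered samples are different animals, and p-values therefore reflect sample-to-sample spread, which may be technical.

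A microRNA gene is transcribed as a long primary transcript, which the nuclease Drosha cuts to a hairpin in the nucleus and Dicer trims to a short duplex in the cytoplasm. A single strand of the duplex is loaded into an Argonaute protein and pairs with messenger RNAs mainly through its seed, bases 2 to 8 of the mature strand. In heart muscle the best known are miR-1, miR-133 and miR-208a, and many loci lie in introns of protein-coding genes, such as Mir208a in the cardiac myosin gene Myh6. A whole-transcript array does not separate primary transcript, hairpin and mature strand, so each value below is a signal at a locus and not the level of a mature microRNA.

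The sequences of the loci on which the results turn are shown first, from the RefSeq tables of GRCm38.p6, where 131 of the 165 members had a hairpin and 142 a mature strand. Mature strands are written 5′ to 3′ with the seed in capitals. The loci that rose or lay highest in Akita hearts include Mir680-1, whose strand miR-680 is shared by Mir680-2 and Mir680-3, and Mir101c, whose strand is set beside its relative miR-101a-3p.
mmu-miR-680 (Mir680-1, chr6:129691541-129691561, plus strand): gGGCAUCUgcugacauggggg
mmu-miR-101c (Mir101c, chr9:3038680-3038698, minus strand): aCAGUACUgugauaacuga
mmu-miR-101a-3p (Mir101a, chr4:101346957-101346977, minus strand): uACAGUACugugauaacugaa
The 19 bases of miR-101c lie whole within the 21 bases of miR-101a-3p, from its base 2, so the annotated seeds are offset by a single base. The strands of loci that fell or lay lowest are the next set.
mmu-miR-5125 (Mir5125, chr17:23823339-23823358, plus strand): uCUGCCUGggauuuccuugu
mmu-miR-692 (Mir692-1, chr17:6895259-6895279, minus strand): aUCUCUUUgagcgccucacuc
mmu-miR-677-5p (Mir677, chr10:128085291-128085312, plus strand): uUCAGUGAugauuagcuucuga
Heart-enriched strands are shown to compare the myosin-gene microRNAs, of which miR-208a and miR-208b share a seed, with the other heart-enriched members.
mmu-miR-208a-3p (Mir208a, chr14:54949072-54949093, minus strand): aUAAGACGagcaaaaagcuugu
mmu-miR-208b-3p (Mir208b, chr14:54975710-54975731, minus strand): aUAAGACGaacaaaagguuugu
mmu-miR-499-5p (Mir499, chr2:155622893-155622913, plus strand): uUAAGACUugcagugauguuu
mmu-miR-133b-3p (Mir133b, chr1:20682834-20682855, plus strand): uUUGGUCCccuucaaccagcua
mmu-miR-378b (Mir378b, chr11:88352839-88352858, plus strand): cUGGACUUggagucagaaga

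The deposited values are log2 signals. The median over all probe sets lay between 4.53 and 4.71 in the 5 arrays. Markers of cardiac myocytes (Myh6, Myl2, Myl3, Tnnt2, Tnni3, Ryr2 and Actc1) had means from 8.52 to 13.18 in all 7 genes listed. Relative to the wild type mean, the 7 markers of atrial myocytes had a median of -0.17 in Akita replicate 1 and 2.36 in replicate 3. Cardiac fibroblast markers stood at 0.04 and 0.61 in these arrays, and epicardium and mesothelium markers at 0.08 and 0.82. Akita replicate 3 thus differs from the other arrays in its atrial, fibroblast and epicardial signal. Macrophage markers stood at -0.37 in Akita replicate 1 and -0.03 in replicate 3. Adipocyte markers stood at 0.32 and 0.42. Of these 6 genes, 4 lay higher in both Akita arrays than in all wild type arrays and 0 lay lower. The median difference between Akita and wild type over the 15547 genes tested was -0.03, or -0.12 with each array centred on its median over all probe sets and 0.06 with each centred on its median over the genes tested. In bulk tissue, fewer cells of a type and less RNA per cell cannot be told apart.

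Among the 162 microRNA loci, 4 rose and 1 fell in Akita hearts at an adjusted p under 0.05 (limma, Benjamini-Hochberg over all 15547 genes tested), and 1 of the 3 host transcripts fell. Over all genes tested, 0.328% passed, 0.212% higher and 0.116% lower. Array scaling changed this split, to 2 loci higher and 1 lower with quantile normalization again or with centring on the genes tested, and to 4 higher and 4 lower with centring on all probe sets. Over all genes the split was 33 higher and 18 lower, against 41 and 43 with centring on all probe sets and 25 and 5 with centring on the genes tested. A difference of at least 1 log2 unit was found at 7 of the 162 loci, where 67 of all genes tested (0.431%) had one. The 7 include Mir669j, one of the 4 that rose, which entered only through its Akita mean and so had to differ. Among the 153 loci and host transcripts over the threshold in each group, 5 had such a difference, 3 rose and 2 fell. Mir101c had the highest difference of all 15547 genes, and Mir467e, Mir680-1, Mir677 and Mir5125 were within the 14 highest or lowest. Mir208a had the lowest, but it entered only through its wild type mean, so a low value was favoured by the choice of members, and without Akita replicate 3 its difference was -0.86, smaller in size than the -1.44 of Mir677.

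**Figure D1:**
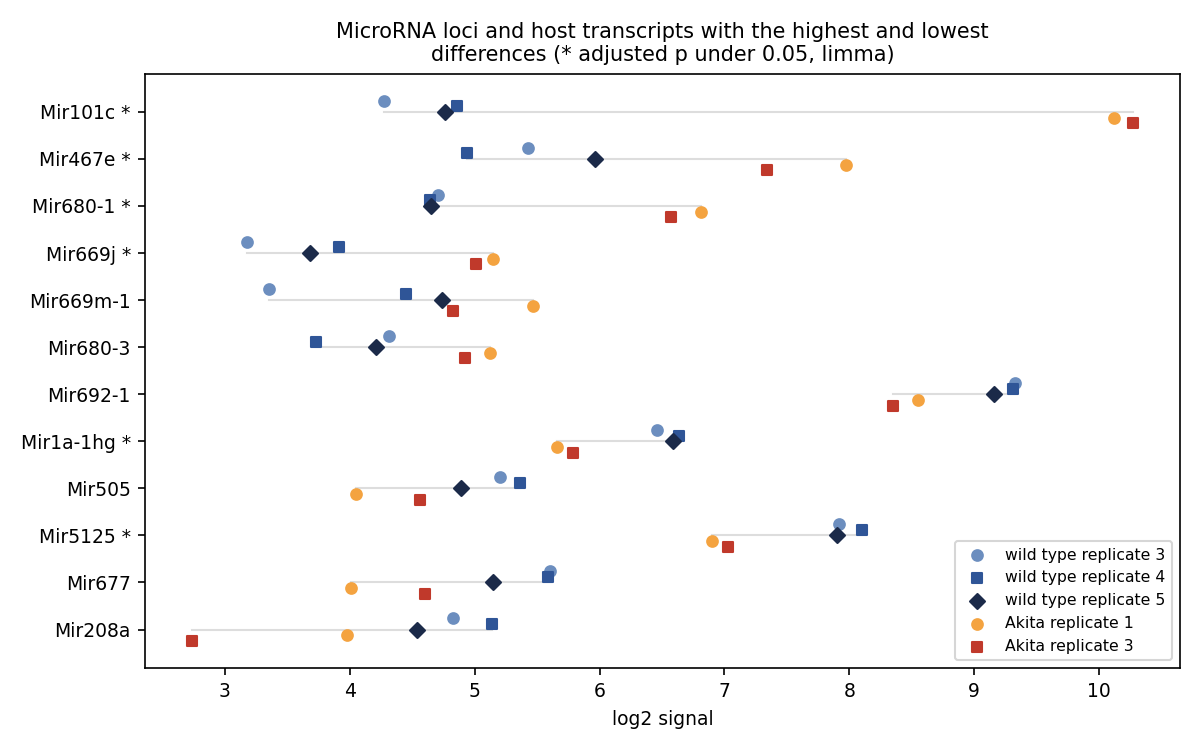
Log2 signal (x axis) of the 12 members past the threshold or with the highest and lowest differences among those whose groups do not overlap, 1 symbol per array, wild type in blue and Akita in orange and red; a star marks an adjusted p under 0.05. At Mir101c both Akita arrays lie above 10 and the wild type arrays below 4.9, while at Mir208a Akita replicate 3 lies apart from replicate 1.

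Mir101c stood at 4.27, 4.86 and 4.76 in wild type replicates 3, 4 and 5 and at 10.12 and 10.27 in Akita replicates 1 and 3. All wild type arrays were dim and in both Akita arrays the locus was exceeded among members by Mir5099 and Mir449b alone. The log2 difference was 5.57 (SE 0.19, adjusted p = 4.22e-05, limma), and it lay between 5.39 and 5.68 with any array left out, with adjusted p from 0.000181 to 0.00188. This is one of several loci annotated for the miR-101 family, which is known for repressing the polycomb methyltransferase Ezh2. Mir101b, of the same family, lay under the threshold at 2.16, 2.10 and 2.43 against 2.36 and 2.13. Its groups overlapped (difference 0.015).

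Mir680-1 stood at 4.71, 4.64 and 4.65 in the wild type arrays and at 6.81 and 6.57 in the Akita arrays. The 3 wild type values were nearly equal and both Akita values far above them (log2 difference 2.02, SE 0.12, adjusted p = 0.00105, limma); the call held with any array left out. The other loci of the family lay higher in Akita without passing. Mir680-2, brighter, was at 7.91, 7.97 and 8.34 against 8.99 and 8.78 (difference 0.81, adjusted p = 0.125), and Mir680-3, dimmer, at 4.31, 3.73 and 4.21 against 5.12 and 4.92 (difference 0.94, adjusted p = 0.13). In all 3 the groups did not overlap, also under each scaling and with any array left out. The hairpins are shown because the loci lie on different chromosomes yet align with each other, with the mature strand in capitals.
Mir680-1 (chr6:129691535-129691643, plus strand): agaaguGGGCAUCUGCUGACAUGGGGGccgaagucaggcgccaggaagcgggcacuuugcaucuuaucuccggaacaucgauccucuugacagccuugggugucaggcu
Mir680-2 (chrX:144297790-144297899, plus strand): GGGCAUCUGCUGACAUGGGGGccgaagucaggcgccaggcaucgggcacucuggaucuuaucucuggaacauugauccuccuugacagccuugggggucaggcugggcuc
Mir680-3 (chr12:35194811-35194897, minus strand): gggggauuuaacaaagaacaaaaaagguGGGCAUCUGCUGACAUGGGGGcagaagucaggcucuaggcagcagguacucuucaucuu
Mir680-1 and Mir680-2 were identical at 92.3% of 104 aligned positions, and Mir680-3, which aligned over a shorter stretch, matched them at 86.9% of 61 and 86.4% of 59. Signals of such similar loci cannot be assigned to single copies with certainty.

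The other loci that rose, Mir467e and Mir669j, belong to the large array of Mir297, Mir466, Mir467 and Mir669 copies in an intron of Sfmbt2, an imprinted polycomb gene on chromosome 2. Mir467e stood at 5.43, 4.94 and 5.96 in wild type and 7.97 and 7.34 in Akita arrays (difference 2.21, SE 0.30, adjusted p = 0.0412, limma). Mir669j stood at 3.18, 3.91 and 3.68 against 5.15 and 5.01 (difference 1.49, SE 0.21, adjusted p = 0.0435, limma). Its wild type mean of 3.59 lay under the threshold for members, so it entered only through its Akita signal and had to differ. The groups did not overlap at either locus, but the call for Mir669j was lost without any one of the 5 arrays and that for Mir467e without any except wild type replicate 5.

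The RefSeq table lists 72 microRNA genes within the span of Sfmbt2, of which 22 had a probe set of their own and 5 were members. The other members, Mir467c, Mir669m-1 and Mir669i, also lay higher in both Akita arrays than in all wild type arrays. Mir467c, the brightest, was at 7.70, 8.06 and 7.98 against 8.85 and 8.21, Mir669m-1 at 3.35, 4.45 and 4.74 against 5.47 and 4.83, and Mir669i at 4.02, 4.18 and 3.92 against 4.64 and 4.61. Their differences of 0.62, 0.97 and 0.59 did not pass (adjusted p = 0.279, 0.347 and 0.137, limma). Mir467c differed by 0.30 without Akita replicate 1 and by 0.94 without Akita replicate 3, and Mir669m-1 by 0.56 without wild type replicate 3. Mir669i entered only through its Akita mean, and its second probe set, dimmer, differed by -0.24.

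Over all 22 loci in the Sfmbt2 span, members or not, 17 lay above 0 and 5 below, with a median difference of 0.31. In 10 of them (45.5%) both Akita arrays lay above all wild type arrays, against 9.87% of the genes tested and 16.7% of the genes under the threshold, and in 1 both lay below. The counts were 15 to 18 above 0 under the other scalings and 15 to 17 with an array left out, and the count without overlap was 10 to 12. Their median became 0.19 when wild type replicate 3 was left out, and 0.46 when replicate 4 was. Mir669k, just outside the threshold, stood at 3.03, 3.48 and 3.02 against 5.13 and 5.48, a difference of 2.13. With no filter on dim genes it rose (adjusted p = 0.00622, limma), as did Mir466b-2 (difference 1.52, adjusted p = 0.0373), Mir466b-3 (1.49, adjusted p = 0.0256) and Mir669g (1.29, adjusted p = 0.0347), none of the 4 a member. Mir466h was the lowest of the span at -0.65. Sfmbt2 itself had a mean of 3.78 in wild type and 3.87 in Akita hearts, and its groups overlapped. The copies share sequence, so these loci are not independent of each other.

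**Figure D2:**
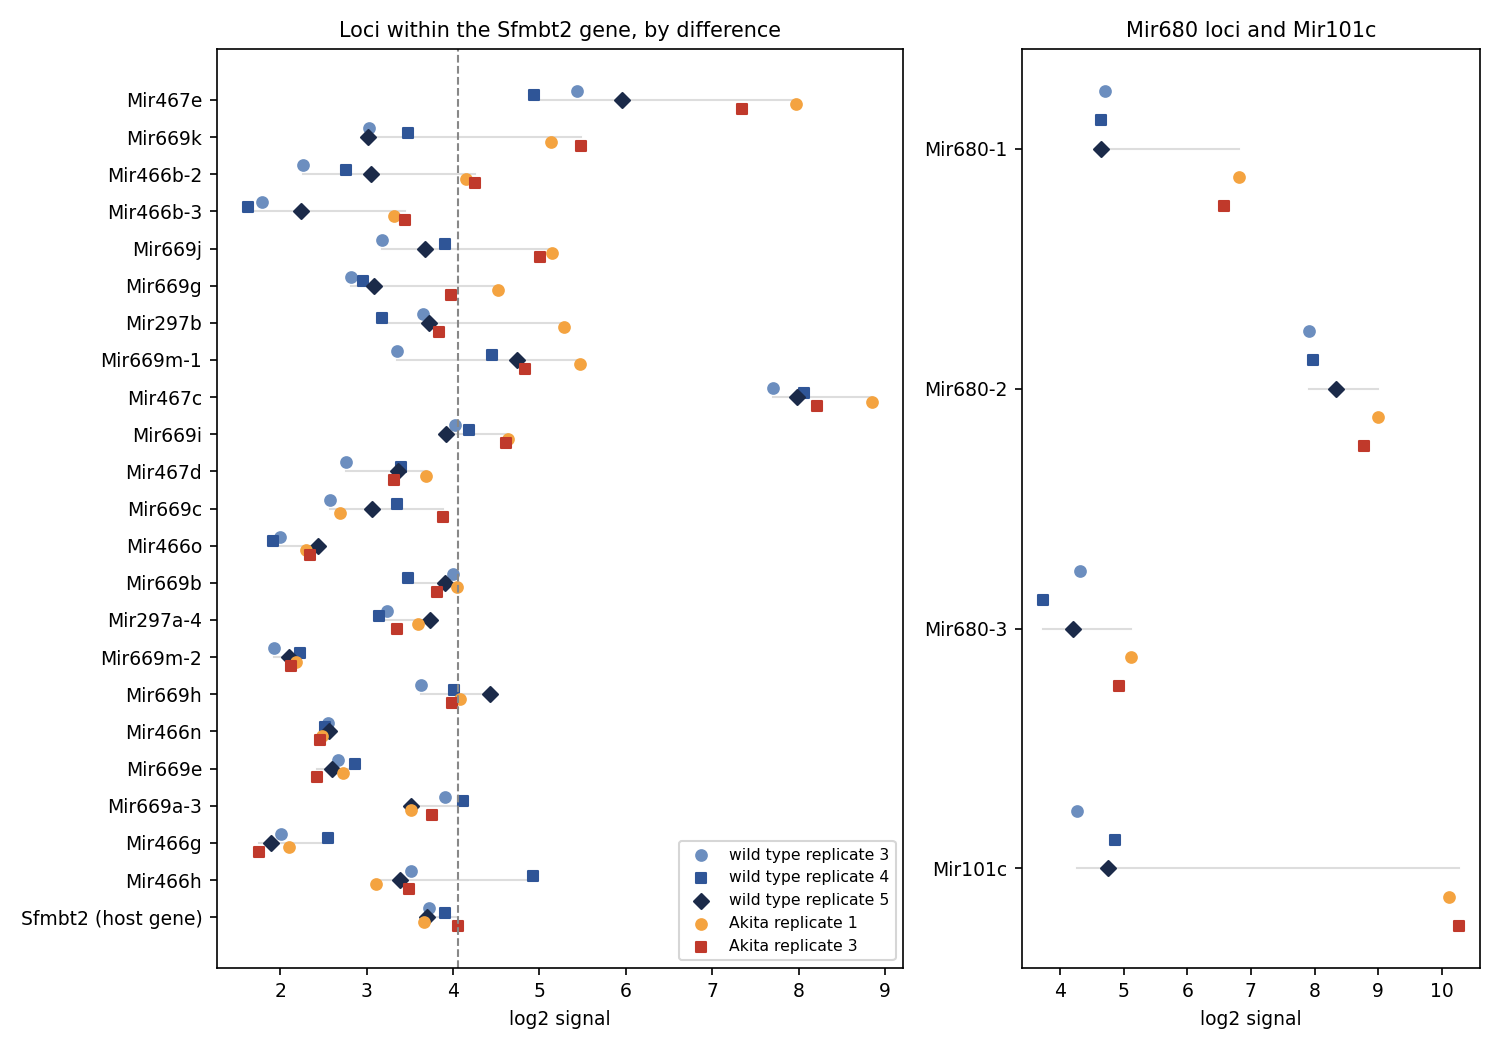
Log2 signal (x axis) in each array of the 22 measured loci within Sfmbt2 and of Sfmbt2 itself (left; the dashed line is the threshold of 4.06), and of the Mir680 loci and Mir101c (right). Akita symbols lie to the right of all wild type symbols at 10 of the 22 loci and at all 4 loci on the right.

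Mir5125, which fell, lies in Srrm2, the gene of a splicing cofactor. It stood at 7.92, 8.10 and 7.90 in the wild type and 6.90 and 7.03 in the Akita arrays, a clear gap between tight groups (difference -1.01, SE 0.12, adjusted p = 0.0285, limma). The call was lost without any one of the 5 arrays, where the difference stayed between -1.07 and -0.94. Srrm2 had a difference of -0.28 (adjusted p = 0.351), with both Akita arrays below all wild type arrays. The hairpin is shown with its mature strand in capitals.
Mir5125 (chr17:23823291-23823369, plus strand): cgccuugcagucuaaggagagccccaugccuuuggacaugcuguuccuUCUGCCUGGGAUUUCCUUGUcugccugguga

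Several members lay lower in both Akita arrays without passing. Mir692-1, the fourth brightest member, was at 9.33, 9.31 and 9.16 against 8.55 and 8.35 (difference -0.82, adjusted p = 0.0577). Mir677 was at 5.60, 5.59 and 5.15 against 4.01 and 4.60 (-1.14, adjusted p = 0.116). Mir505 was at 5.20, 5.36 and 4.89 against 4.05 and 4.56 (-0.85, adjusted p = 0.165), and Mir1938 at 6.31, 6.51 and 6.47 against 5.52 and 5.80 (-0.77, adjusted p = 0.0917). At each of these loci both Akita arrays were below the lowest wild type array.

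Heart and muscle enriched loci were mostly dim on this array. Of 14 listed, 3 were members (Mir378b, Mir133b and Mir208a), 7 lay under the threshold, 3 had probe sets naming several genes, and 1 had no probe set listed. Mir208a, which regulates myosin heavy chain expression, stood at 4.83, 5.14 and 4.54 in wild type and at 3.98 and 2.74 in Akita arrays. Both Akita values were below all wild type values, and replicate 3 was far below replicate 1. The difference of -1.48 (SE 0.34, adjusted p = 0.166, limma) did not pass. It was -2.10 without Akita replicate 1, where it passed at adjusted p = 0.0353, and -0.86 without Akita replicate 3. Mir208a entered through its wild type mean only, its Akita mean being 3.36.

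Mir133b, a muscle-specific relative of the miR-133a loci, was at 4.59, 4.14 and 4.51 against 4.51 and 3.98, and Mir378b, of the metabolic miR-378 family, at 6.26, 6.30 and 6.46 against 6.36 and 6.26. In both the groups overlapped (differences -0.17 and -0.03, adjusted p = 0.757 and 0.939). Mir378b was thus the heart list's brightest locus and the one with the smallest difference.

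All 10 measured loci of the heart list lay below 0 in the difference, with a median of -0.40. In 9 of 10 this held with quantile normalization again or with centring on the genes tested, with Mir378b turning, or without wild type replicate 5, and in 8 of 10 without Akita replicate 3. Of the 15547 genes tested, 8761 lay below 0, and of the 318 microRNA symbols under the threshold, 197 did. At 4 of the 10 heart loci (40.0%) both Akita arrays were below all wild type arrays, namely Mir208a and the dim Mir1a-1, Mir133a-1 and Mir378a. The share was 19.8% of the genes tested and 6.11% of the genes under the threshold. It was 15.5% of the 483 microRNA symbols and 16.7% of those under the threshold. Mir1a-1 was at 3.37, 3.81 and 2.71 against 2.46 and 2.40, Mir133a-1 at 4.02, 3.52 and 3.68 against 3.20 and 2.75, and Mir378a at 3.46, 3.51 and 3.12 against 2.98 and 2.31. Relative to the wild type mean the list stood at a median of -0.28 in Akita replicate 1 and at -0.56 in replicate 3. The 7 cardiac myocyte markers had a median of -0.06 and -0.15 in the same arrays, and 4 of these 7 lay lower in both. The part of these markers or of the atrial signal in the result was not tested.

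Mir1a-1hg, the host transcript of Mir1a-1 and Mir133a-2, fell. It stood at 6.46, 6.64 and 6.59 in wild type and 5.66 and 5.79 in Akita arrays, with no overlap and a gap several times the spread within groups (difference -0.84, SE 0.12, adjusted p = 0.0424, limma). The call was lost without any one of the 5 arrays, with differences from -0.90 to -0.77. Of the other host transcripts, Mir99ahg was at 6.16, 6.52 and 6.47 against 5.51 and 6.18 and Mir9-3hg at 3.87, 3.84 and 4.74 against 4.57 and 3.97; both overlapped.

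The protein-coding genes whose spans hold heart loci were bright and are set beside them. Myh6, the adult cardiac myosin heavy chain and host of Mir208a, had a mean of 12.91 in both groups, at 12.83, 12.95 and 12.95 against 12.90 and 12.92. The Mir208a hairpin is shown, with its mature strands in capitals, as the product cut from an intron of that transcript.
Mir208a (chr14:54949060-54949142, minus strand): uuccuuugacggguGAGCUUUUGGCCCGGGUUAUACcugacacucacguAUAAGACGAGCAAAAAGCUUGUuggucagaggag
Myh7, the fetal heavy chain and host of Mir208b, was at 9.05, 8.80 and 8.87 against 8.92 and 9.75, high in Akita replicate 3 alone (difference 0.43, adjusted p = 0.468), while Mir208b differed by -0.32. Myh7b, which holds Mir499, was at 6.85, 6.96 and 6.65 against 6.19 and 6.60 (-0.43, adjusted p = 0.317), and Mir499 differed by -0.21. Ppargc1b, the coactivator gene whose span holds Mir378a, overlapped between groups, as did Mib1, whose span holds Mir133a-1. For Mir378a and Mir133a-1 only the span was compared, not the strand, so these genes are not called hosts here.

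**Figure D3:**
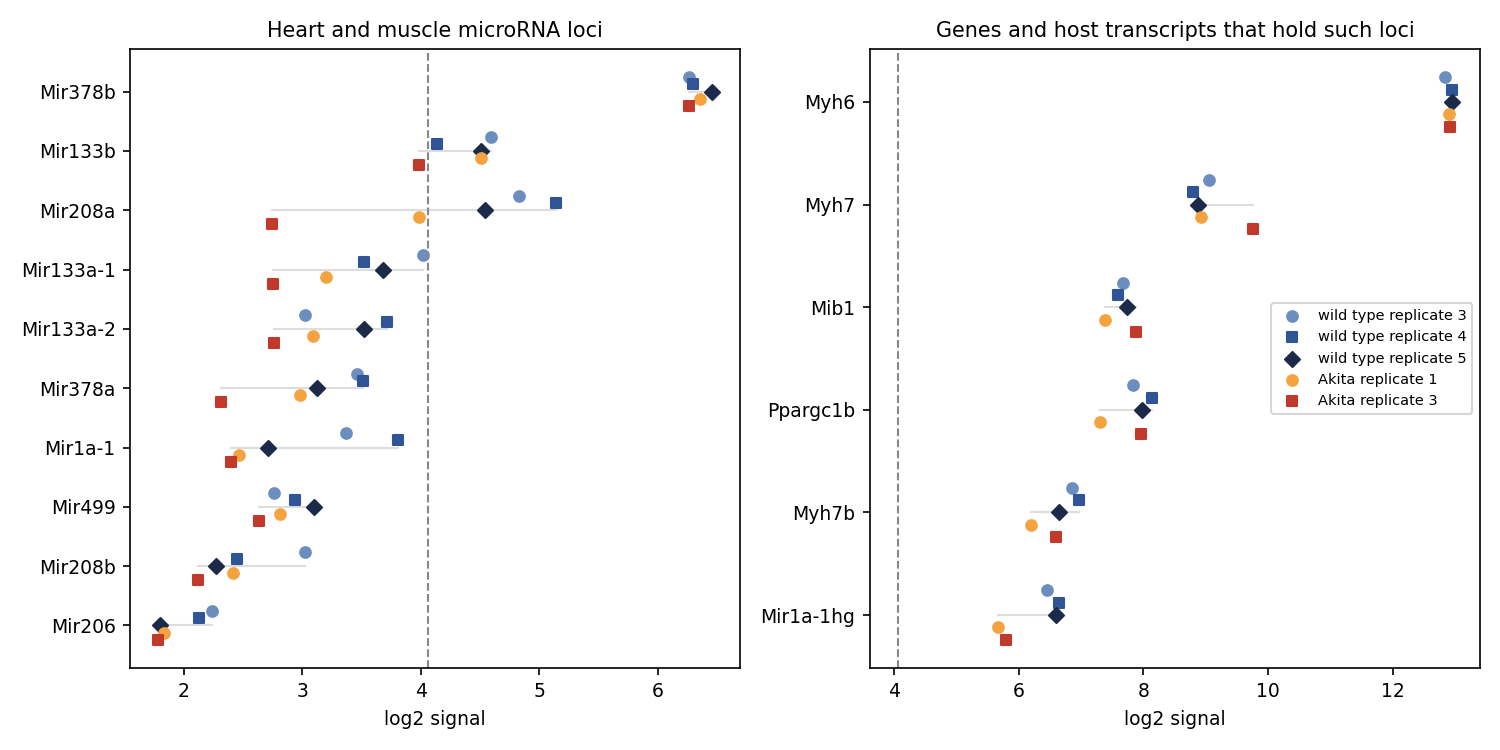
Log2 signal (x axis) in each array of the 10 measured heart and muscle microRNA loci (left) and of genes or host transcripts whose span holds such loci (right; Myh6 with Mir208a, Myh7 with Mir208b, Mib1 with Mir133a-1, Ppargc1b with Mir378a, Myh7b with Mir499, Mir1a-1hg with Mir1a-1 and Mir133a-2). The dashed line is the threshold of 4.06. Of the 10 loci, 3 have a mean above it, and all 6 genes or host transcripts lie to its right in every array.

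Locus and host were compared more widely. Of 144 members with coordinates and strand in the RefSeq tables, 72 lay inside a gene on the same strand, and 64 of these had a host with its own probe set. The host was the brighter at 46 of the 64, although levels of different probe sets compare only roughly, since they differ in their probes and length. The median locus difference minus host difference was 0.03. With 59 hosts over the threshold, Pearson's r was 0.06 and Spearman's rho 0.07 between the differences of locus and host, and 0.19 and 0.16 between their mean signals; the points share the same 5 arrays and some share a host. Both Akita arrays lay below all wild type arrays for locus and host at 5 of the 59 pairs, and above for both at 1, Mir107 in Pank1, the pantothenate kinase gene. The locus lay lower in this sense at 14 of the pairs and higher at 5, and over all genes tested 19.8% lay lower and 9.87% higher.

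Other pairs differed. Mir677 lay 1.14 lower within Atp5b, the ATP synthase beta subunit gene, which differed by -0.05. Atp5b and Myh6 had means of 12.92 and 12.91, near the highest value on the arrays, 13.66. Whether differences are compressed at that level was not tested. Mir15a and Mir16-1 lie together in Dleu2, a long non-coding RNA, at a difference of -0.61 (adjusted p = 0.135). Mir15a was at 5.87, 5.84 and 6.10 against 5.54 and 5.79, and Mir16-1 at 5.52, 5.51 and 5.52 against 5.95 and 5.62, on opposite sides of their wild type ranges. Mir191 and Mir425 in Dalrd3 differed by 0.61 and -0.12 with the host at -0.33; the second probe set of Mir191, dimmer, differed by -0.11.

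**Figure D4:**
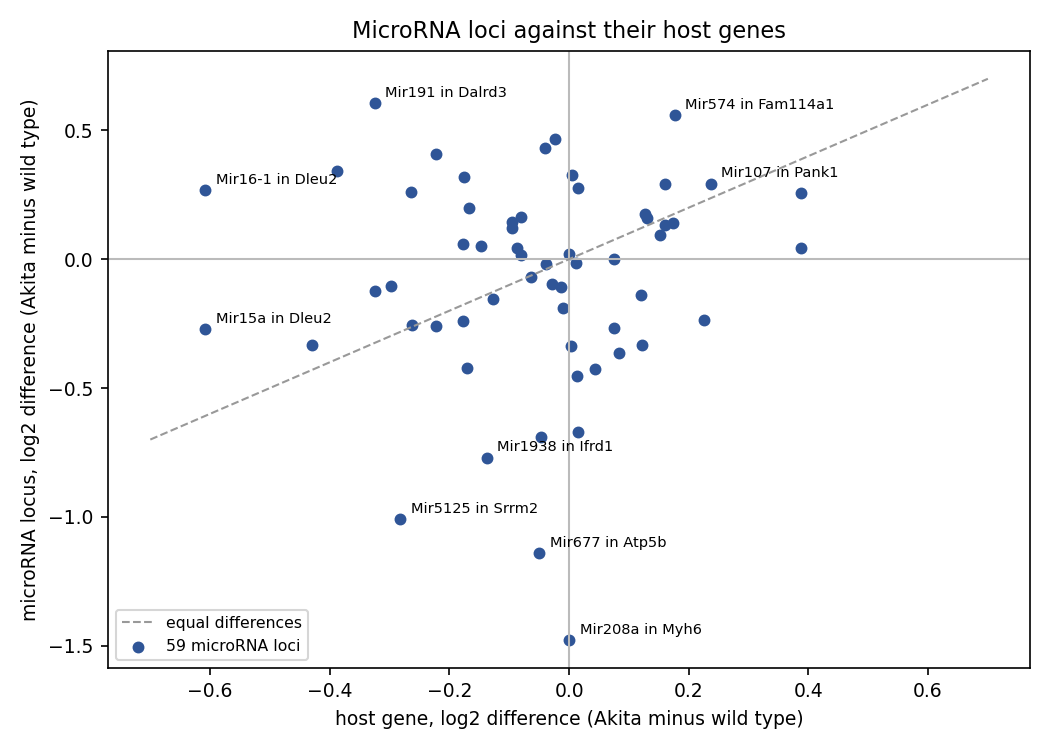
Log2 difference, Akita minus wild type, of 59 microRNA loci (y axis) against that of their host genes (x axis), for hosts over the threshold; the dashed line marks equal differences. Mir208a and Mir677 lie far below 0 with hosts near 0, and Pearson's r over the points is 0.06.

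Taken over the 162 loci, 102 lay above 0 and 60 below, with a median difference of 0.10, where 43.3% of the genes tested lay above 0. This balance depended on scaling and on a single array: it was 82 to 80 with arrays centred on all probe sets, 115 to 47 with centring on the genes tested, and 67 to 95 (median -0.07) without Akita replicate 1. The balance against other genes also differed by signal level. Of the 120 loci with a mean under 6, 56.7% lay above 0, where 59.4% of the genes tested at that level did. With a mean of 6 or more, 81.0% of the 42 loci lay above 0, where 30.6% of the genes did. Without Akita replicate 1, 21 of these 42 loci lay above 0. Relative to the wild type mean, the loci had a median of 0.23 in Akita replicate 1, of -0.07 in Akita replicate 3, and of -0.05, -0.03 and 0.09 in the wild type arrays. Both Akita arrays were above all wild type arrays at 31 loci (19.1%, against 9.87% of the genes tested) and below at 21 (13.0%, against 19.8%). In either direction the groups lay apart at 29.7% of the genes tested. These shares differ by signal level. Genes tested with a mean under 6 had 14.1% higher and 9.46% lower, and the loci at that level 19.2% and 15.0%. With a mean of 6 or more the genes had 6.56% and 28.0%, and the loci 19.0% and 7.14%. At an unadjusted p under 0.05 (limma), 25 loci lay higher and 16 lower, against 4.12% and 9.48% of the genes tested, 13.6% in all. The 153 loci and host transcripts whose mean was over the threshold in each group gave 18.3% and 12.4%, while 7 members entered through the wild type mean only and 5 through the Akita mean only.

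**Figure D5:**
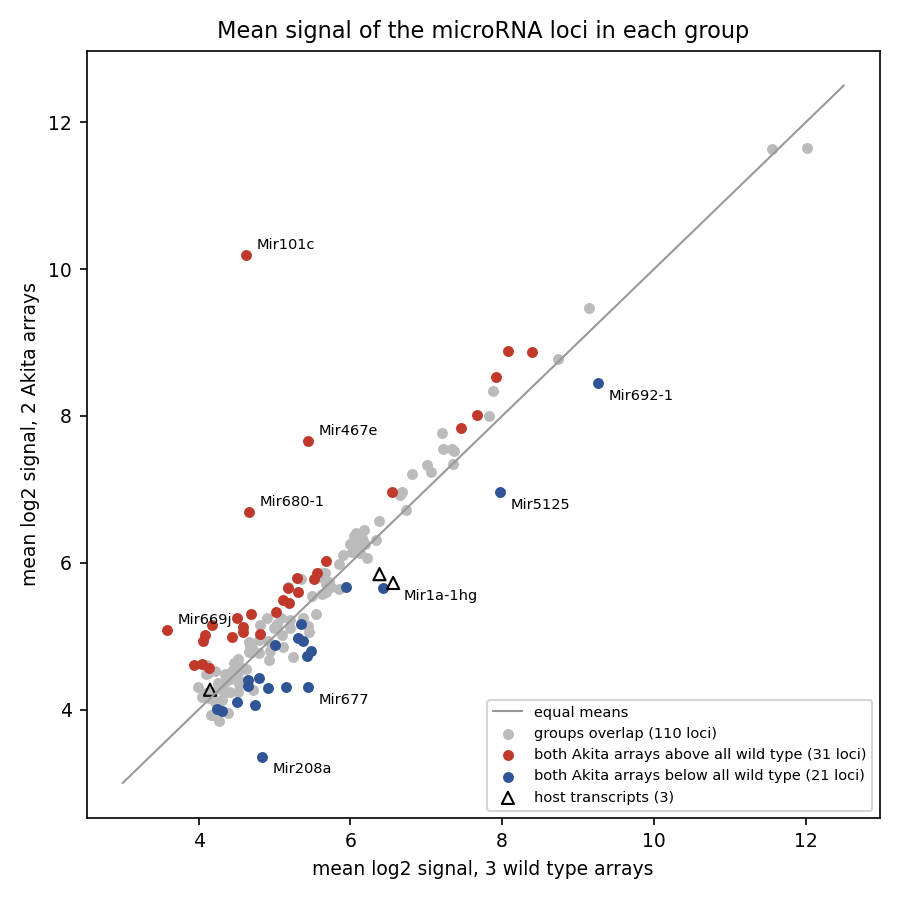
Mean log2 signal in the 3 wild type arrays (x axis) and the 2 Akita arrays (y axis) of 162 microRNA loci and 3 host transcripts; the line marks equal means. Red points (31 loci) have both Akita arrays above all wild type arrays, blue points (21 loci) both below, and Mir101c stands far above the line.

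Bright loci lay higher than genes of like signal, through a single array. The 42 loci with a mean of 6 or more had a median difference of 0.22, where the 8678 genes tested at that level had -0.08. In Akita replicate 1 these loci had a median of 0.47 and in replicate 3 of -0.003, so the excess was that of replicate 1. The level was cut on the mean over both groups. Mir101c and Mir467e reached it through their Akita arrays (wild type means 4.63 and 5.44), and Mir1938 through its wild type arrays (Akita mean 5.66). The 8 brightest members differed in either direction and none passed. Mir5099 lay at 11.80, 12.04 and 12.21 against 11.47 and 11.84, and Mir449b at 11.56, 11.72 and 11.40 against 11.75 and 11.53, with overlapping groups. Mir1195, Mir1954 and Mir703 differed by 0.32, 0.05 and 0.48, and Mir692-1, Mir680-2 and Mir467c by -0.82, 0.81 and 0.62, the last 4 of these 6 with groups apart.

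In the miR-181 and miR-15 families, each with a shared seed, the differences took both signs. In the first, 4 loci with seed ACAUUCA differed by 0.48, -0.02, 0.33 and 0.16 (Mir181a-2, Mir181b-2, Mir181c and Mir181d), and only Mir181a-2 had groups apart, at 5.06, 5.40 and 5.07 against 5.90 and 5.42. In the second, Mir15a, Mir16-1 and Mir497 differed by -0.27, 0.27 and 0.12. Both let-7 members, Mirlet7a-1 and Mirlet7i, overlapped between groups, at differences of -0.07 and -0.13.

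The let-7 loci as a whole, repressors of growth genes and broadly expressed, lay below 0 in 11 of 11 measured (9 of 11 with centring on the genes tested, 10 of 11 without wild type replicate 4, Akita replicate 1 or Akita replicate 3), with a median of -0.22, or -0.12 with that centring. Of the 15547 genes tested, 8761 lay below 0. At 4 of the let-7 loci both Akita arrays were below all wild type arrays (36.4%, against 19.8% of the genes tested and 15.5% of the microRNA symbols). All 4 were among the 9 let-7 loci under the threshold, a level at which 6.11% of all genes lay lower in this sense. In a wider list of 24 broadly expressed loci, 21 lay below 0, or 17 with centring on the genes tested. Of its members Mir27a was the lowest, at 5.47, 5.37 and 5.44 against 4.36 and 5.11, and Mir16-1 the highest. The 318 microRNA symbols under the threshold lay below 0 in 197 cases and above in 121, but in 140 and 177 with centring on the genes tested; 16.7% of them had both Akita arrays below all wild type arrays, where 6.11% of all genes under the threshold did.

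Loci known from vessels, fibrosis and blood were few among the members. Mir143, a smooth muscle microRNA, was at 4.81, 4.59 and 4.35 against 5.16 and 4.96 (difference 0.48, adjusted p = 0.277), whereas Mir145a, transcribed with it, was under the threshold at 4.24, 3.99 and 3.87 against 2.93 and 3.79. Mir212, which responds to cardiac stress, was at 4.78, 4.81 and 4.82 against 5.17 and 4.88, and Mir34b, a p53 target, at 4.96, 5.10 and 5.26 against 5.70 and 5.29. Both had groups apart without passing. Of the 11 measured loci of the fibrosis and stress list, 8 under the threshold, 2 lay higher and 2 lower without overlap (18.2% each). The lower ones were the dim Mir34c and Mir29b-1 (differences -0.22 and -0.19). Of the genes tested 9.87% lay higher and 19.8% lower, and of the genes under the threshold 16.7% and 6.11%. The blood cell loci Mir142 and Mir146b overlapped. No locus of the Mir17 cluster and its relatives was a member, with 10 of 17 measured under the threshold.

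Neighbouring loci on chromosome 12, in the imprinted Dlk1-Dio3 region, formed the only cluster of at least 4 members within 10 kb of each other: Mir299a, Mir329, Mir494, Mir539, Mir654, Mir666, Mir667, Mir668 and Mir758. All 9 overlapped between groups, with differences from -0.30 at Mir667 to 0.50 at Mir758 and a median of 0.05. Their median relative to the wild type mean was 0.31 in wild type replicate 5 and 0.35 in Akita replicate 1, against -0.15, -0.15 and -0.19 in wild type replicates 3 and 4 and Akita replicate 3, so arrays of both genotypes fell on each side. Rian and Meg3, long non-coding RNAs of the region, differed by 0.08 and -0.11.

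The genes that make and use microRNAs were measured on the same arrays. Ddx5, an RNA helicase of the Drosha complex, fell, from 11.24, 11.32 and 11.32 in wild type to 10.59 and 10.43 in Akita arrays (difference -0.78, SE 0.11, adjusted p = 0.0493, limma); the call was lost without any one of the 5 arrays, with centring on the genes tested, with array weights and in the unmoderated linear model. It was the only one of 20 tested genes of the list to pass. Of the 20, 16 lay below 0, where 8761 of the 15547 genes tested did, and 5995 of the 8678 with a mean of 6 or more. In 9 of the 20 (45.0%) both Akita arrays lay below all wild type arrays, where 28.0% of all genes with a mean of 6 or more did. These counts fell to 13 below 0 and 5 without overlap with centring on the genes tested, and 12 lay below 0 without Akita replicate 1; the median of -0.13 became -0.04 and -0.03. Drosha was at 8.36, 8.37 and 8.38 against 8.19 and 8.29 and Dicer1 at 7.26, 7.15 and 7.12 against 6.81 and 7.05, both apart by little. The Argonaute genes Ago1, Ago2, Ago3 and Ago4 overlapped, with differences from -0.24 to -0.08.

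Membership was set by mean signal, with which hairpin composition went. The median GC content was 54.1% in the 131 member hairpins and 45.8% in 269 hairpins of loci under the threshold. Over the 400 loci with a hairpin, Pearson's r between GC content and mean signal was 0.49 (Spearman's rho 0.54), a description over loci that share the same arrays. Within the 131 members, whose range of signal the threshold cut, r was 0.09 (rho 0.20). Between GC content and the difference between groups it was 0.08 (rho 0.06). The last loci inside the threshold were Mir3097 and Mir497 at a mean of 4.09 and Mir331 at 4.06, and the first outside were Mirlet7e at 4.05 and Mir669k and Mir669h at 4.03.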

How the data were processed

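The deposited table holds log2 signals, 1 value per probe set and array for 41345 probe sets, made by the authors with Affymetrix Expression Console, per the submitters' processing notes. The method of probe summary and background removal was not given in the sources used here, and the log base was taken from the range of values, 1.27 to 13.66. The platform annotation gave 23521 probe sets a single gene symbol, 1814 several (136 of them naming a microRNA) and listed none for 16010. Each of 22180 genes was represented by its brightest probe set. In 4 members there were 2 probe sets, and 5 (Mir1195, Mir1929, Mir1943, Mir328 and Mir483) had values identical to those of a probe set with no symbol listed.

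The groups were compared by limma 3.58.1 under R 4.3.3 (two-sided; lmFit, then eBayes), as Akita minus wild type, over the 15547 genes with a mean of at least 4.06, with Benjamini-Hochberg adjustment. Residual degrees of freedom were 3 and prior ones 4.38; the within-group SD had a median of 0.14. The number of arrays limits the precision. The test was checked on simulated data. The groups are said not to overlap where both Akita values lie above, or both below, every wild type value. A host gene is a RefSeq gene whose span holds the locus on the same strand.

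The members and lists were chosen with earlier results of these data known. The named loci are those past an adjusted p of 0.05, the 8 brightest, the 6 highest and 6 lowest differences among members whose groups do not overlap, the heart list with hosts, clusters of at least 4 members, and 3 loci on each side of the threshold. Other loci, such as Mir1938, Mir27a, Mir143, Mir191 and Mir107, and Ddx5 were named with their values in view. As alternatives, other filters on dim genes, averaging of probe sets, a second quantile normalization, centring, a trended robust prior, array weights, an unmoderated model, a threshold of 0.1 and the omission of each array were run. Centring on the genes tested, and the locus and host comparison with each array left out, were added after seeing the data. Tables and figures used Python 3.11.15, pandas 2.3.3, numpy 2.4.6 and matplotlib 3.10.9.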

Additional observations from a re-analysis of the deposited data

How the results depend on the processing

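Mir101c and Mir680-1 passed in 11 of 12 settings each (5 of them with an array left out), failing in the unmoderated model alone. Mir5125 passed in 6 of the 12, Mir467e and Ddx5 in 4, Mir1a-1hg and Mir669j in 3. The microRNA loci called, 5 as reported, numbered 10 with no filter, 8 with arrays centred on all probe sets, 9 with a trended robust prior, and 3 with quantile normalization, centring on the genes tested or array weights. In the unmoderated model 0 loci and 0 genes passed, with 22 loci and 1727 genes at an unadjusted p under 0.05. With an array left out they numbered 2 to 3. All genes called, 51 as reported, numbered 86 with no filter, 84 with centring on all probe sets, 197 with the robust prior, 30 with centring on the genes tested, 28 with array weights, 96 at a threshold of 0.1, and 9 to 44 with an array left out. The lone Akita array is then assumed to vary like the wild type.

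The median over the loci, 0.10, was -0.0208 with no filter, 0.19 with the filter at the 50th percentile or with centring on the genes tested, 0.0142 with centring on all probe sets, and ran from -0.07 (Akita replicate 1 omitted) to 0.23 (Akita replicate 3 omitted). The median of locus minus host, 0.03, ran from -0.10 without Akita replicate 1 to 0.19 without Akita replicate 3. In each case the cause was not tested.

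Differences that turned sign were all uncalled. With centring on all probe sets Mir449b became -0.005, Mir1954 -0.04, Mir666 -0.033, Mir494 -0.005 and Mir654 -0.06. With quantile normalization Mir378b became 0.005, Mir494 -0.003 and Mir654 -0.06. With centring on the genes tested Mir378b became 0.065, and with the mean of its probe sets Mir299a 0.034. Over the omissions of each array, the values that crossed 0 ran from -0.03 to 0.19 for Mir449b, -0.02 to 0.11 for Mir1954, -0.433 to 0.097 for Mir133b, -0.08 to 0.03 for Mir378b, -0.465 to 0.045 for Mir329, -0.363 to 0.467 for Mir666, -0.62 to 0.26 for Mir667, -0.19 to 0.35 for Mir494, -0.28 to 0.33 for Mir654, -0.2 to 0.04 for Mir299a, -0.147 to 0.393 for Mir668 and -0.983 to 0.137 for Mir3097. No paired analysis was possible because the groups share a single replicate number, 3. Signals near the threshold may be close to background, which was not measured here, and differences there may be understated.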
